A study of Mus musculus with 9 samples.

Results

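Small nucleolar RNAs (snoRNAs) are short non-coding RNAs of the nucleolus, and 74 of the 22180 genes measured on these mouse liver arrays encode one. They were chosen by symbol: every gene whose symbol starts with Snora or Snord and a number, together with Rnu3a, where the array annotation gave its probe set a single gene. Of these, 26 were H/ACA snoRNAs (the Snora genes) and 48 were C/D snoRNAs (the Snord genes and Rnu3a). The rule itself used no difference between groups, although the group was taken up with earlier results of these arrays known. Among the members 2 had a second probe set: for Snora33 the one with the higher mean was used, and for Snora19 both held identical values.

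The samples were livers of C57BL/6 mice (spelled C56BL/6J in the strain field) that were 5 weeks old at the start and had fasted overnight before collection. The regular-diet group received vehicle, the high-fat-diet group received the high-fat diet and vehicle, and the extract group received an extract of ginseng flower buds (GFB) at 500 mg/kg on top of the high-fat diet. Dosing was by mouth, once a day, for 12 weeks, and each group had 3 arrays. Sex, diet composition and whether each array came from a separate mouse are not given in the sources used here, so the spread behind the p-values may be technical.

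C/D snoRNAs guide 2'-O-methylation of ribosomal and other RNAs together with the proteins fibrillarin, Nop56, Nop58 and Snu13. H/ACA snoRNAs guide pseudouridylation with dyskerin, Nhp2, Nop10 and Gar1. A few members of both classes, among them U3 (Rnu3a), U8 (Snord118) and U17 (Snora73a and Snora73b), are needed for cleavage and folding of the ribosomal RNA precursor. In mammals most snoRNAs are cut out of introns of host genes, many of which encode ribosomal proteins or belong to the non-coding Snhg family, while U3, U8 and U13 (Snord13) are transcribed from promoters of their own.

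Array profiles correlated at 0.987 to 0.994 over all genes. The liver label was borne out by its markers: albumin (Alb), transthyretin (Ttr) and Apoa1 had mean log2 values of 13.5, 13.1 and 12.0, against a median of 4.74 over all genes. The neutrophil genes S100a8 and Ly6g, the bile duct genes Krt19 and Epcam, the lymphocyte gene Cd3g and the pancreas genes Prss2 and Reg1 lay below that median. Other measured markers of these cell types, Sox9 (bile duct), Cd79a and Nkg7 (lymphocytes) and Ctrb1 (pancreas), are not covered by that statement. Summed on the linear scale with those genes included, the 3 bile duct markers ran from 64.9 to 72.9 on the regular diet. The 3 lymphocyte markers ran from 61.7 to 68.8 and the 3 pancreas markers from 48.1 to 50.5. Of the 31 markers of liver and other cell types, 14 were lower on the high-fat diet than on the regular diet and 17 were higher. The summed linear level of the 7 hepatocyte markers ran from 41586.7 to 43770.4 on the regular diet and from 39287.1 to 41157.6 on the high-fat diet. That of the 4 stellate-cell markers ran from 424.5 to 478.2 and from 469.4 to 600.9, with Col1a1 (0.85) and Col3a1 (1.14) called higher on the log2 scale and the other 2, Lrat (-0.15) and Reln (-0.14), lower without passing. Among the hepatocyte markers Cps1, a urea cycle enzyme gene, was called lower (-0.66, adjusted p = 0.0224). Cps1 was 1 of 2 hepatocyte markers with a smaller log2 mean on the high-fat diet, while the other 5 had a larger one. Their middle log2 difference was 0.01, so most of these 7 markers did not share the fall of their sum. For the 4 sinusoidal endothelial markers the ranges were 889.5 to 1017.7 and 700.0 to 887.4. On the log2 scale 3 of these 4 markers were lower on the high-fat diet and 1 was higher (0.52), with 0 called. Their part in the snoRNA differences was not tested, and in whole liver fewer cells of a type and less RNA per cell cannot be told apart.

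Because most of these RNAs are made from introns of host genes, the sequence that bears on their transcription is the host's start site. The windows below run from 20 bases before to 20 bases after the RefSeq start of hosts that carry members described here (mouse GRCm38.p6, 5' to 3' on the gene's strand). Capitals mark a pyrimidine run, searched as CTTTTC or CTTTCC or CTCTTC or CTCTTT or CCTTTC or CTTTCT, motifs that can overlap. Such runs at the cap site are known from genes of the translation machinery.
Snhg3, host of Snora73a and Snora73b, chr4:132353667-132353706, minus strand: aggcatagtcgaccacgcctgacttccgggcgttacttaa
Snhg12, host of Snora44, Snora61, Snora16a and Snord99, chr4:132308658-132308697, plus strand: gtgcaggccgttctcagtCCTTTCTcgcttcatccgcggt
Rps3a1, host of Snord73a and Snord73b, chr3:86142649-86142688, minus strand: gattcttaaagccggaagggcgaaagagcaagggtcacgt
Rps12, host of Snora33, chr10:23787190-23787229, minus strand: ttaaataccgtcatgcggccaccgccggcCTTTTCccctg
Rpl4, host of Snord16a, chr9:64173367-64173406, plus strand: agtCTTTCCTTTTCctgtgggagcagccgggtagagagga
Rpl37, host of Snord72, chr15:5116593-5116632, plus strand: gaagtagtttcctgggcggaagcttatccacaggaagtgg
Of the 43 start windows listed for 40 single hosts of the snoRNAs, 10 (23.3%) held such a run on the gene's strand and 2 (4.65%) on the other. Over all 32851 windows of the table the shares were 8.29% and 8.1%. Where no run was found, these letters are not in this window, and nothing more follows.

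The first question was how snoRNA levels differed between livers on the 2 diets without extract. Of the 74 snoRNA genes, 68 had a lower mean on the high-fat diet, and 16 passed the test as lower (limma across all genes, Benjamini-Hochberg adjusted p under 0.05), while 0 passed as higher. Among all genes 0.518% passed as lower and 0.821% as higher. The 3 high-fat arrays lay below all 3 regular-diet arrays for 51 snoRNAs (68.9%), against 7.86% of all genes, and above them for 0, against 7.93%. Among the 68 snoRNAs brighter than the median gene the share was 73.5%, against 11.9% of the genes that bright. The median log2 difference over the snoRNAs was -0.41, and over all genes it was 0.00. Most differences were small: 4 members were lower by more than 1 on the log2 scale, 22 by between 0.5 and 1, and 42 by less than 0.5, and 6 were higher.

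The size of the fall and the number of calls rest differently on single arrays. The median over the snoRNAs stayed between -0.46 and -0.37, and 65 to 71 members stayed lower, whichever array was left out. The count of calls moved far more, from 16 to 1 without regular-diet replicate 2 or high-fat replicate 1, to 3 and 4 without high-fat replicates 2 and 3, to 10 and 7 without extract replicates 1 and 2, and to 0 when only the 6 arrays compared were fitted, a fit that called 15 of all genes.

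**Figure D1:**
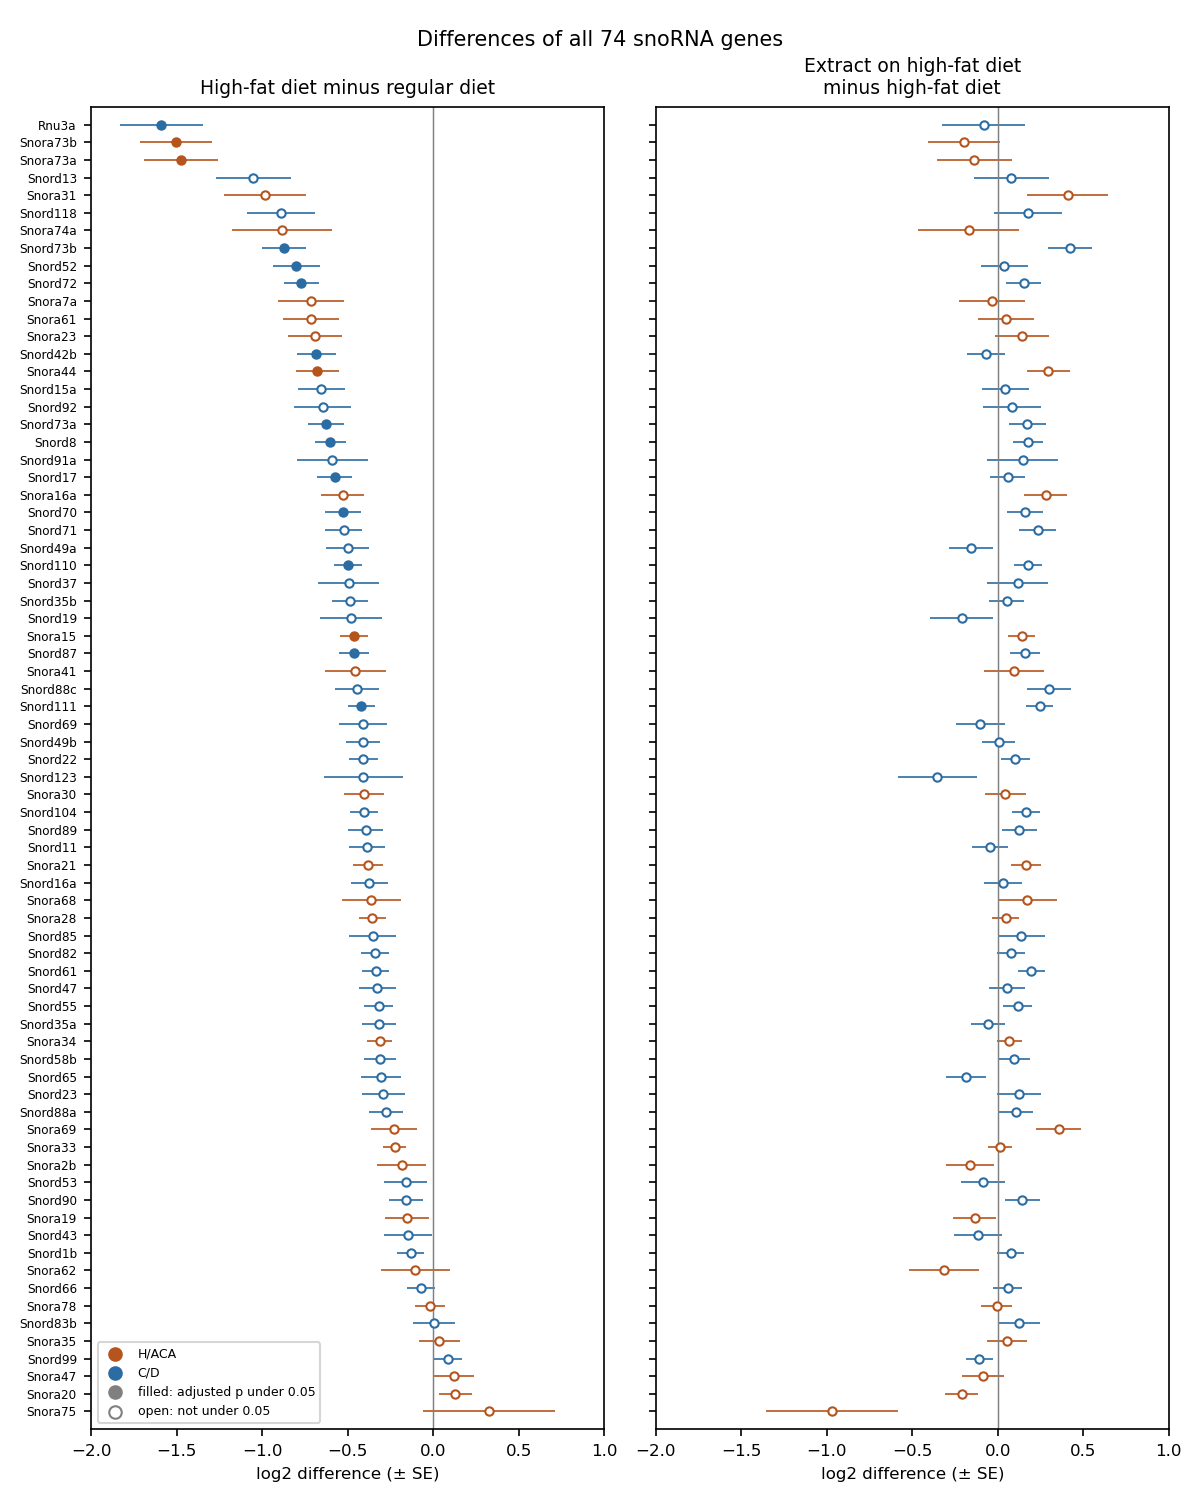
Log2 differences ± SE of all 74 snoRNA genes, ordered by the difference between the high-fat and the regular diet (left), with the difference between extract and no extract on the high-fat diet beside it (right); orange marks H/ACA, blue C/D, and filled points have an adjusted p under 0.05. On the left 68 points lie below 0 and 16 are filled, and on the right 51 lie above 0 and none is filled.

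The U3 gene Rnu3a, whose RNA base-pairs with the ribosomal RNA precursor and is needed for the cleavages that free 18S rRNA, showed the largest difference of all members. Its log2 values were 8.19, 8.18 and 7.71 on the regular diet, 6.29, 6.17 and 6.84 on the high-fat diet, and 5.86, 6.52 and 6.68 with extract. Every array of the high-fat groups lay below every regular-diet array. It fell 3.01-fold on the high-fat diet (-1.59 ± 0.24 SE, n = 3 arrays a group, limma adjusted p = 0.019). The call was lost without regular-diet replicate 2 (adjusted p = 0.0852) and without high-fat replicates 1 (0.0695) and 2 (0.0739), with the difference between -1.46 and -1.52 in those fits.

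Rnu3a has near-identical copies in the mouse genome, and the array gave them another picture. The 4 probe sets annotated to Rnu3b1, Rnu3b2, Rnu3b3 and Rnu3b4 together, which carried identical values and are no members, read 10.18, 9.91 and 9.90 on the regular diet. They read 9.90, 9.73 and 10.12 on the high-fat diet and 9.93, 9.74 and 9.75 with extract. These groups overlapped, with a mean difference of -0.08 between the diets. How the array divides U3 signal between Rnu3a and these copies is uncertain.

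Snora73a and Snora73b encode U17, an H/ACA RNA that acts in 18S rRNA processing and is not known as a modification guide. Snora73b read 10.93, 10.81 and 10.39 on the regular diet, 9.21, 8.76 and 9.65 on the high-fat diet, and 9.05, 8.92 and 9.06 with extract. Snora73a read 10.50, 10.50 and 9.98, then 8.83, 8.40 and 9.32, and 8.78, 8.69 and 8.67. In both genes the high-fat and extract arrays lay wholly below the regular-diet arrays, and high-fat replicate 3 was the highest of its group. Snora73b fell 2.84-fold (-1.50 ± 0.21, adjusted p = 0.0145) and Snora73a 2.78-fold (-1.48 ± 0.22, adjusted p = 0.0166). Both calls were lost without regular-diet replicate 2 (adjusted p = 0.0686 and 0.074) and without high-fat replicate 1 (0.0502 and 0.0559). The genes are close copies in the introns of 1 host, Snhg3, so they are not independent observations and the array may read part of each in the other.

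**Figure D2:**
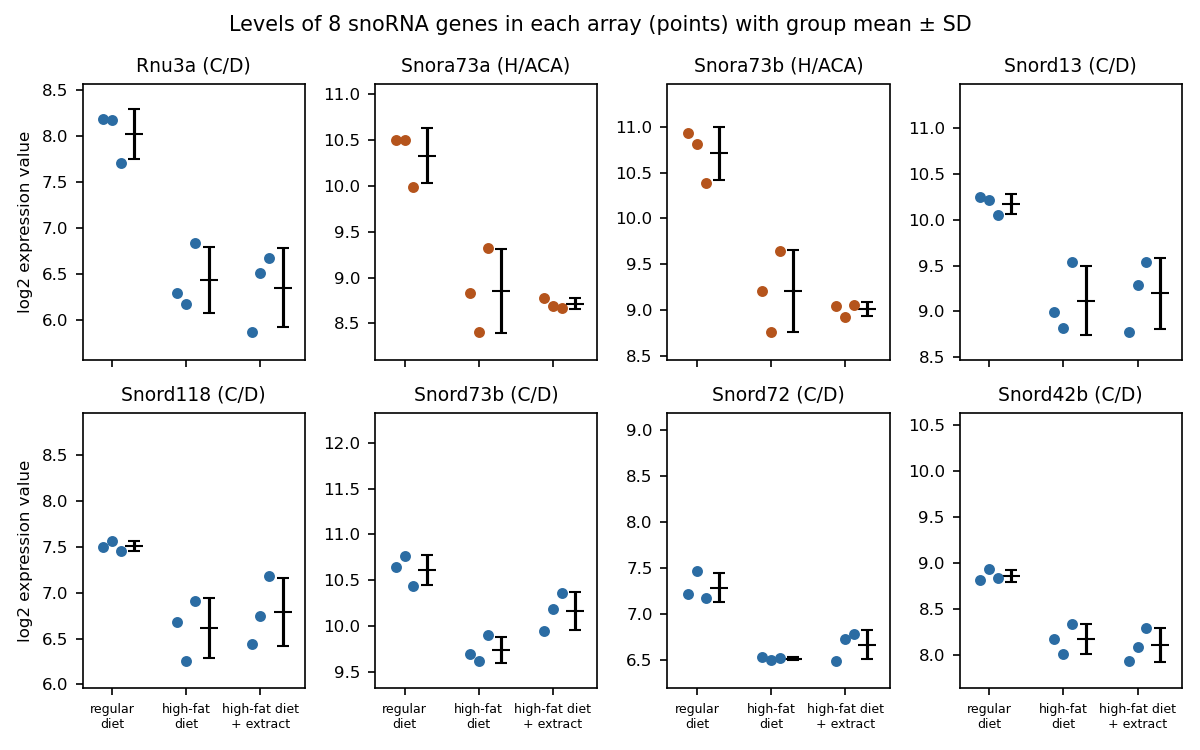
Log2 expression value (vertical axis) of 8 snoRNA genes in each of the 9 arrays (points, in replicate order) with the mean ± SD of the 3 arrays of each group (black); orange marks H/ACA and blue C/D, and every panel spans the same log2 range. In all 8 genes the 3 high-fat arrays lie below the 3 regular-diet arrays.

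Snord13, Snord118, Snord22 and Snora74a, further RNAs with a part in rRNA processing, were lower as well, without passing the test. Snord13 (U13), which guides acetylation of 18S rRNA, read 10.25, 10.22 and 10.05 on the regular diet, 8.99, 8.82 and 9.54 on the high-fat diet, and 8.77, 9.28 and 9.54 with extract. Its difference between the diets was -1.05 ± 0.22 (adjusted p = 0.0558), with no overlap of those groups. Snord118 (U8), needed for 5.8S and 28S rRNA, read 7.50, 7.56 and 7.45, then 6.68, 6.26 and 6.91, and 6.44, 6.75 and 7.18. The arrays of the diets did not overlap here either, and the difference was -0.89 ± 0.20 (adjusted p = 0.0715). Snord22 (U22), known for 18S rRNA processing, read 11.78, 11.92 and 11.80 on the regular diet and 11.47, 11.28 and 11.53 on the high-fat diet (-0.41 ± 0.08, adjusted p = 0.055). For Snora74a (U19) the ranges of the diets overlapped, since regular-diet replicate 3 (6.17) was below high-fat replicate 1 (6.25), and its difference was -0.89 ± 0.29 (adjusted p = 0.217).

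Among the C/D snoRNAs that are guides by class, Snord72, which lies in the gene of ribosomal protein L37, had the smallest adjusted p. It read 7.22, 7.47 and 7.17 on the regular diet, 6.53, 6.50 and 6.52 on the high-fat diet, and 6.49, 6.73 and 6.78 with extract. The 3 high-fat arrays were nearly equal and lay below all regular-diet arrays. It fell 1.71-fold (-0.77 ± 0.10, adjusted p = 0.0134), and this call was lost only without high-fat replicate 3 (adjusted p = 0.0534) among the fits that left out 1 array. Snord73b read 10.64, 10.76 and 10.44 on the regular diet, 9.70, 9.62 and 9.91 on the high-fat diet, and 9.95, 10.19 and 10.36 with extract. It fell 1.83-fold (-0.87 ± 0.13, adjusted p = 0.0168), and the extract arrays lay between the other groups with no overlap with either. Its call was lost without regular-diet replicate 2 (0.0701) and without high-fat replicates 1 (0.0591) and 2 (0.0693). Snord73a, from the same host gene Rps3a1, read 7.61, 7.95 and 7.78 on the regular diet and 7.20, 7.06 and 7.21 on the high-fat diet. It fell by 0.63 ± 0.11 (adjusted p = 0.0287), again with the groups apart.

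Snord42b, an intronic C/D RNA of the ribosomal protein gene Rpl23a, read 8.81, 8.93 and 8.83 on the regular diet, 8.17, 8.01 and 8.34 on the high-fat diet, and 7.93, 8.08 and 8.30 with extract. It fell 1.61-fold on the diet (-0.68 ± 0.11, adjusted p = 0.0251), and the extract arrays overlapped the high-fat arrays. Snord52 read 6.08, 6.53 and 6.60 on the regular diet against 5.75, 5.51 and 5.54 on the high-fat diet (-0.80 ± 0.14, adjusted p = 0.0305). Snord8, which lies within Chd8 and the predicted gene Gm26590, read 9.61, 9.79 and 9.49 against 9.07, 9.07 and 8.95 (-0.60 ± 0.09, adjusted p = 0.0168). In these 3 genes the lowest regular-diet array exceeded the highest high-fat array.

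The remaining called C/D genes fell by 0.42 to 0.58 on the log2 scale. Snord17, in an intron of the sorting nexin gene Snx5, read 9.26, 9.09 and 8.90 on the regular diet and 8.48, 8.45 and 8.59 on the high-fat diet (-0.58 ± 0.10, adjusted p = 0.033). Snord70 (-0.53, adjusted p = 0.0494) and Snord110 (-0.50, adjusted p = 0.0251) lie in the genes of Nop58 and Nop56, which are themselves core proteins of the C/D particle. Snord110 was tight within groups, at 10.77, 10.80 and 10.71 on the regular diet and 10.26, 10.28 and 10.23 on the high-fat diet. Snord87 (-0.46, adjusted p = 0.0411) and Snord111 (-0.42, adjusted p = 0.0369) complete the 12 called C/D genes. Just past the threshold lay Snord104 (-0.40, adjusted p = 0.0501) and Snord71 (-0.52, adjusted p = 0.0539), both with non-overlapping groups.

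Besides the U17 pair, the called H/ACA genes were Snora44 and Snora15. Snora44, one of the 4 members in the non-coding host Snhg12, read 9.10, 8.99 and 8.62 on the regular diet, 8.26, 8.09 and 8.33 on the high-fat diet, and 8.43, 8.53 and 8.60 with extract. It fell 1.60-fold on the diet (-0.68 ± 0.13, adjusted p = 0.0386). Snora15, in the chaperonin gene Cct6a, had means of 9.60 ± 0.07 (SD) against 9.14 ± 0.12 with no overlap (-0.46 ± 0.08, adjusted p = 0.0307), and its call was lost in each of the 9 fits that left out 1 array. Its difference stayed between -0.51 and -0.39 in those fits. Snora31, in the gene of the translationally controlled protein Tpt1, had the next largest difference of the class without passing, at 9.14, 8.76 and 8.41 against 7.76, 7.43 and 8.16 (-0.99 ± 0.24, adjusted p = 0.0916). Snora7a (-0.72), Snora61 (-0.71), Snora23 (-0.69) and Snora16a (-0.53) did not pass either, and their groups did not overlap.

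The 6 members of each class with the highest mean array value were also followed, a choice that reflects probe response as well as abundance. Of these 12 genes, Snora73b and Snora15 passed the test between the diets, as given above, and the other 10 did not. Snord104 read 12.79, 12.70 and 12.58 on the regular diet, 12.27, 12.19 and 12.39 on the high-fat diet, and 12.45, 12.42 and 12.47 with extract. Snora33, an H/ACA RNA within the ribosomal protein gene Rps12, read 12.58, 12.65 and 12.53, then 12.42, 12.32 and 12.35, and 12.34, 12.35 and 12.44 (-0.23 ± 0.07 between the diets, adjusted p = 0.173). In both, all high-fat arrays lay below all regular-diet arrays. The other C/D genes were Snord22 (-0.41, adjusted p = 0.055), Snord49b (-0.41, adjusted p = 0.0848), Snord16a (-0.37, adjusted p = 0.156), Snord55 (-0.32, adjusted p = 0.119) and Snord99 (0.09, adjusted p = 0.716). The other H/ACA genes were Snora16a (-0.53, adjusted p = 0.0854), Snora21 (-0.38, adjusted p = 0.0782) and Snora34 (-0.31, adjusted p = 0.0762). The diet groups overlapped in Snord99 and in no other gene of the 12.

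The 6 members with a higher mean on the high-fat diet were Snora75 (0.32 ± 0.39), Snora20 (0.13), Snora47 (0.12), Snord99 (0.09), Snora35 (0.03) and Snord83b (0.00), and none passed. All 6 had overlapping groups. Snora75, in an intron of nucleolin (Ncl), was the most variable, at 6.35, 5.58 and 5.51 on the regular diet, 6.97, 5.44 and 6.00 on the high-fat diet, and 5.58, 5.21 and 4.71 with extract. Snord99 was steady at 11.54, 11.58 and 11.55 against 11.75, 11.57 and 11.60. Snora19, Snora35, Snord43, Snord85, Snord90 and Snord91a had means below the median gene, where a probe set reads close to background.

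H/ACA and C/D snoRNAs were lower by like amounts on the high-fat diet. Of the H/ACA genes 22 of 26 were lower, 4 were called and 15 had groups apart, with a median of -0.37. Of the C/D genes 46 of 48 were lower, 12 were called and 36 had groups apart, with a median of -0.41. Read in each array against the regular-diet mean, the H/ACA median was 0.18, 0.03 and -0.22 on the regular diet, -0.31, -0.47 and -0.29 on the high-fat diet, and -0.28, -0.37 and -0.28 with extract. The C/D median was -0.02, 0.09 and -0.06, then -0.43, -0.50 and -0.39, and -0.37, -0.37 and -0.24. In both classes the 6 high-fat arrays, with or without extract, lay below the 3 regular-diet arrays, and the H/ACA genes varied more among the regular-diet arrays. The H/ACA median minus the C/D median was 0.21, -0.06 and -0.15 on the regular diet and 0.12, 0.03 and 0.10 on the high-fat diet, so the groups overlapped and no difference between the classes was seen beyond the spread of the arrays.

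**Figure D3:**
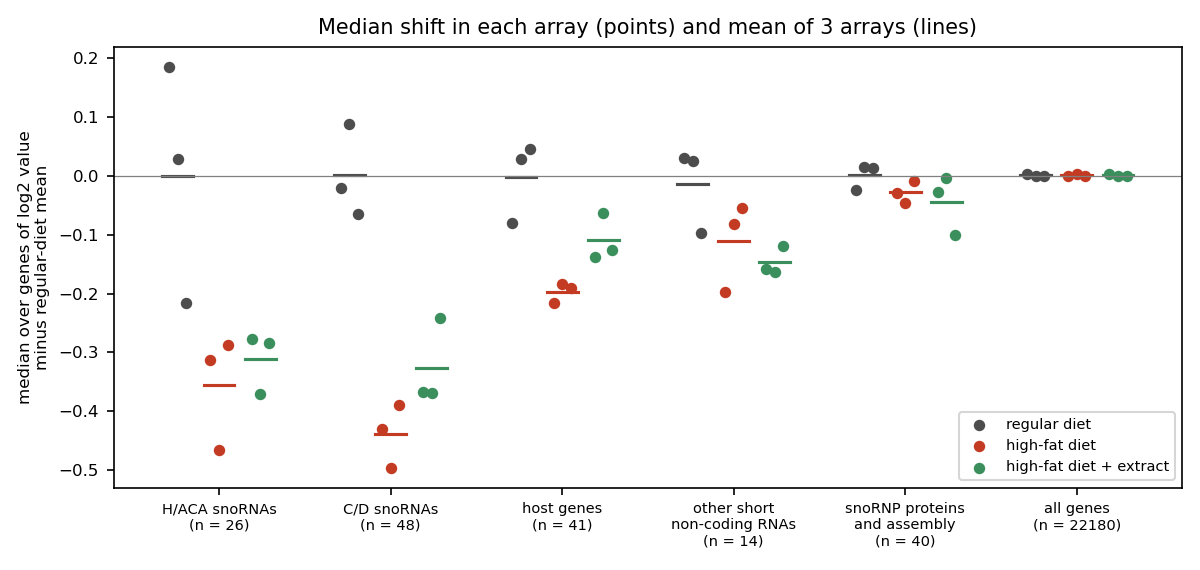
Median over the genes of a set of the log2 value minus the regular-diet mean (vertical axis), in each of the 9 arrays (points) with the mean of each group's 3 arrays (lines), for both snoRNA classes, their host genes, other short non-coding RNAs, the proteins of snoRNA particles and all genes. The high-fat arrays sit at -0.47 to -0.29 for H/ACA and at -0.50 to -0.39 for C/D snoRNAs, between -0.22 and -0.18 for host genes, and at 0.00 for all genes.

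Host genes were set beside the snoRNAs they contain. In the RefSeq annotation 64 members lay inside 1 other gene, 6 inside several and 4 inside none. For 55 members the single host was itself among the genes tested, which gave 41 hosts, 11 of them holding several members. Of these hosts 34 were lower on the high-fat diet, with a median of -0.20. The test called 5 of them, all lower, where 0.518% of all genes were called lower. The groups were apart on the lower side in 15 hosts (36.6%), against 7.86% of all genes, and on the higher side in 1. An unadjusted p under 0.05 was found for 16 hosts (39%), against 13.3% of all genes. The called hosts were the ribosomal protein genes Rps3a1 (-0.57, adjusted p = 0.0131), Rps12 (-0.43, adjusted p = 0.0354), Rpl23a (-0.39, adjusted p = 0.042), Rpsa (-0.38, adjusted p = 0.0394) and Rpl4 (-0.36, adjusted p = 0.0438).

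The snoRNA stood below its host in 44 of the 55 pairs, and both were lower in 41. Snhg3, the host of both U17 genes, differed by -0.53 ± 0.15 (adjusted p = 0.134), and its arrays did not overlap between the diets, against -1.50 and -1.48 for the snoRNAs in its introns. Snhg12 differed by -0.11 (adjusted p = 0.787), while its members Snora61, Snora44 and Snora16a differed by -0.71, -0.68 and -0.53 and the other member, Snord99, by 0.09. Ipo7, a nuclear import receptor gene, and Snhg4 were at 0.07 and 0.04, against -0.69 for Snora23 and -0.89 for Snora74a inside them. Snhg12 had a mean level of 4.67, below the median gene (4.74), where a probe set reads close to background, so its small difference says little about the host. The same limit holds for 8 of the 55 pairs, in 5 hosts. In the other direction, Rpsa and Rps12 were called lower while Snora62 (-0.11) and Snora33 (-0.23) inside them were not. The value of Snora33 depends on the probe set. Its dimmer one, not tested alone, read 6.67, 6.60 and 6.19 on the regular diet and 6.22, 5.82 and 6.18 on the high-fat diet. Over the 55 pairs, which share hosts and arrays, the differences of snoRNA and host correlated weakly (Pearson r = 0.29, Spearman rho = 0.17, as a description).

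**Figure D4:**
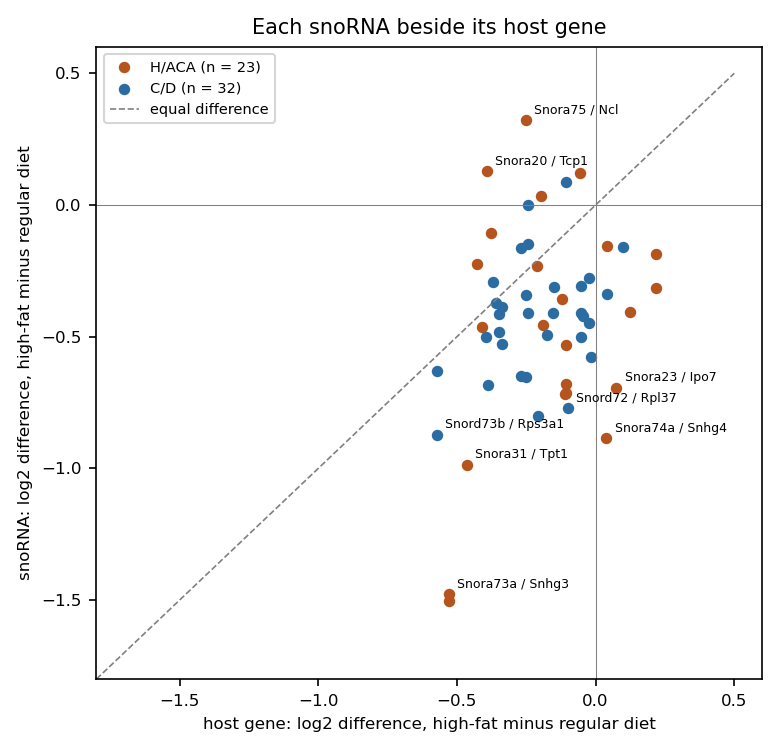
Log2 difference between the high-fat and the regular diet of each snoRNA (vertical axis) against that of its host gene (horizontal axis) for 55 pairs; orange marks H/ACA, blue C/D, and the dashed line marks equal differences. Of the points 44 lie below the line, and the U17 genes of Snhg3 lie lowest.

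Members inside ribosomal protein genes and inside other single hosts had like medians, while the 4 outside any host had a lower one. The 18 snoRNAs inside a single ribosomal protein gene had a median of -0.37, with 17 lower and 4 called, and the 46 in other single hosts had a median of -0.41, with 41 lower and 9 called. The 4 outside any host, Rnu3a, Snord13, Snord118 and Snord89, had a median of -0.97, and all were lower with 1 called. Snord89 was the smallest of these, at 8.88, 8.72 and 8.53 on the regular diet against 8.24, 8.42 and 8.29 on the high-fat diet (-0.40, adjusted p = 0.119).

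Length was looked at because the largest differences belonged to long members, with bounds chosen after the values were seen. The annotated lengths ran from 48 to 221 nucleotides, with a median of 118.5 for H/ACA and 68 for C/D genes. The 6 members over 180 nucleotides, Rnu3a, Snora73a, Snora73b, Snora74a, Snora23 and Snord17, were all lower, with 4 called and a median of -1.18. The 21 of 100 to 180 nucleotides had a median of -0.38 with 18 lower and 2 called, and the 47 shorter ones had a median of -0.40 with 44 lower and 10 called. Over all 74 members the rank correlation of length and difference was weak (Spearman rho = -0.17, as a description).

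**Figure D5:**
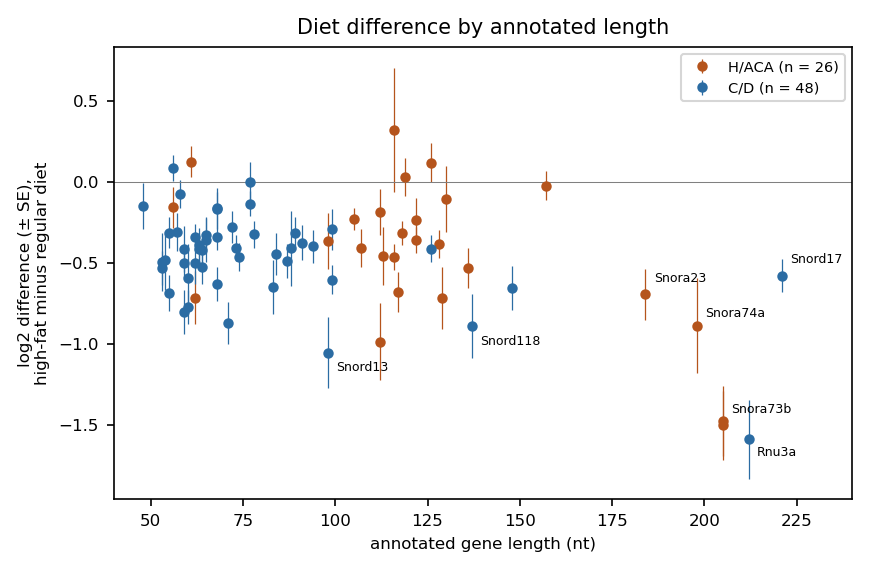
Log2 difference ± SE between the high-fat and the regular diet (vertical axis) against annotated length in nucleotides (horizontal axis) for the 26 H/ACA (orange) and 48 C/D (blue) snoRNA genes. Points under 180 nucleotides centre near -0.4, and the 6 longer ones run from -1.59 to -0.58.

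Other short or structured non-coding RNAs were read beside the snoRNAs, since they are also non-coding and went through the same extraction. Their lengths were not matched to those of the snoRNAs. The RNA was extracted with a column kit per the labels' protocols, recovery of short RNA per array was not measured, and its part in the differences was not tested. Of 14 such RNAs 11 were lower and 1 was called, as lower, where 0.518% of all genes were, with a median of -0.08. The groups were apart in 4 (28.6%), all lower, against 7.86% of all genes on that side. An unadjusted p under 0.05 was found for 4 (28.6%), against 13.3% of all genes. The called one was Scarna17 (-0.46, adjusted p = 0.0174), a Cajal body RNA related to the snoRNAs, and Scarna6 (-0.76, adjusted p = 0.0744) had the largest difference. The abundant 7SK RNA (Rn7sk, -0.07), the RNase P RNA (Rpph1, 0.08), the Y RNAs Rny1 (-0.03) and Rny3 (0.22), the spliceosomal Rnu11 (-0.02) and telomerase RNA (Terc, 0.20) lay near 0 or above, and none of them passed. Rnu12, another minor spliceosomal RNA, was at -0.46 (adjusted p = 0.239). All 3 of the 14 RNAs that were higher are named here, but not all of the 11 lower ones. For the 472 microRNA genes 0 were called (39 at an unadjusted p under 0.05, where 13.3% of all genes were), and the 99 above the median gene had a median of 0.01.

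Genes of the proteins that build, modify or trim snoRNAs lay close to 0 as groups. Of 40 measured genes of snoRNA particles and their assembly 26 were lower, 0 were called (5 at an unadjusted p under 0.05, or 12.5%, against 13.3% of all genes) and the median was -0.04. The C/D core genes Nop56 and Nop58 were at -0.40 (adjusted p = 0.483) and -0.34 (adjusted p = 0.36), and Snu13 at -0.13. The H/ACA core genes Dkc1 (0.01), Nhp2 (0.01), Nop10 (-0.08) and Gar1 (-0.10) lay close to 0. Of 19 genes of 3' trimming and RNA decay 0 were called (0 at an unadjusted p under 0.05), with a median of -0.01. Of 25 genes of RNA polymerase I and ribosome biogenesis 18 were lower and 0 were called, with a median of -0.09. In this list 6 genes (24%) had an unadjusted p under 0.05, against 13.3% of all genes. Its groups were apart on the lower side for 4 genes (16%), against 7.86% of all genes, and on the higher side for 0.

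Further snoRNAs sit on probe sets annotated to several genes and so are no members. Their 47 probe sets held 29 distinct rows of values, of which 27 were lower on the high-fat diet, with a median of -0.31. The groups were apart in 18 rows, all lower, where 7.86% of all genes were apart on that side. No test was run on these rows, and the signal may belong to the host's exons in part. A probe set of Snora17 and its host Snhg7 read 7.83, 7.87 and 7.81 on the regular diet and 6.72, 6.60 and 6.70 on the high-fat diet. Its mean difference was -1.16, against -0.97 for another probe set of the same pair and -0.09 for that of Snora43 and Snhg7. The single-gene probe set of Snhg7 differed by -0.05. Snord15b with Rps3 read 10.86, 10.93 and 10.75 against 10.32, 10.28 and 10.31, beside -0.65 for the member Snord15a in the same host.

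The next comparison asked what the extract changed in mice on the high-fat diet. Of the snoRNAs 0 passed this test, as did 0.00451% of all genes (1 gene), and 7 members (9.46%) had an unadjusted p under 0.05, against 5.98% of all genes. On the means, 51 members were higher with extract and 23 lower, with a median of 0.07 over all, 0.05 for H/ACA and 0.09 for C/D genes. The extract arrays lay above all high-fat arrays for 13 members, against 4.42% of all genes, and below them for 0, against 5.27%. The smallest adjusted p was that of Snord73b (0.42 ± 0.13, adjusted p = 0.702). Snord111 read 7.98, 8.09 and 7.94 on the high-fat diet and 8.21, 8.22 and 8.30 with extract (0.24 ± 0.08, adjusted p = 0.72). Snord8, Snora44, Snora15, Snord87, Snord110 and Snord104 also had extract arrays above all high-fat arrays, by 0.14 to 0.29 on the mean. The shift was small against its dependence on arrays: without extract replicate 3 the median was 0.01 with 34 members lower, without high-fat replicate 2 it was 0.02 with 35 lower, and over all fits that left out 1 array it ran from 0.01 to 0.11. Snora75 had the largest difference (-0.97 ± 0.39, adjusted p = 0.802), and without high-fat replicate 1, which read 6.97, it was -0.55.

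Against the regular diet, the extract group showed the snoRNAs lower again. This comparison shares its regular-diet arrays with the diet comparison and its extract arrays with the comparison just given, so they are not independent. Of the 74 members 70 were lower, 5 were called, all lower, and 46 (62.2%) had groups apart on the lower side. Over all genes 0.18% were called lower and 0.261% higher, and 7.62% were apart on the lower side. The median was -0.35 (-0.34 for H/ACA and -0.36 for C/D genes). The called members were Snora73b (-1.70 ± 0.21, adjusted p = 0.0168), Snora73a (-1.61 ± 0.22, adjusted p = 0.0206), Rnu3a (-1.67 ± 0.24, adjusted p = 0.0274), Snord42b (-0.75 ± 0.11, adjusted p = 0.0297) and Snord72 (-0.62 ± 0.10, adjusted p = 0.0452). Each was also called between the diets. All 5 calls were lost without regular-diet replicate 2, without extract replicate 1 and without extract replicate 2, 2 of the 5 remained without regular-diet replicate 3 or high-fat replicate 1, and 1 remained without extract replicate 3.

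Side by side, the means of the 3 groups placed the extract between the diets for 48 of the 74 members, at a level above the high-fat diet and below the regular diet. For 22 members the extract mean was below both others and for 3 above both. The share of all genes placed in these ways was not counted. Of the 16 members called between the diets, 12 had an extract mean above the high-fat mean and 4, Rnu3a, Snora73a, Snora73b and Snord42b, had one below it. These 16 were picked for low values in the same high-fat arrays. That choice favours an extract mean above the high-fat mean, so the count says nothing about the extract. Against the regular-diet mean, the median over all snoRNAs was -0.42 ± 0.06 (SD, n = 3 arrays) on the high-fat diet and -0.32 ± 0.07 with extract, and the ranges of these arrays, -0.49 to -0.37 and -0.37 to -0.24, met at their ends.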

How the data were processed

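Biotin-labelled cDNA from liver total RNA was hybridised to whole-transcript arrays, 3 for each group. Each probe set has a deposited log2 value, and the submitters' processing notes name RMA and oligo (an R package) as what the authors used, without versions. The genome build was not given in the sources used here. RMA equalises the arrays' distributions, so a shift shared by most genes would be removed, and dim probe sets stay near background. Of the probe sets 23521 carried a single gene symbol and were used, 1814 carried several and 16010 none. For genes with several probe sets the one with the highest mean was used, which left 22180 genes. Against RefSeq (GRCm38.p6), 23328 symbols were equal, 193 were not found and 0 differed. All 74 snoRNAs matched, and RefSeq gave their lengths, enclosing genes and the host start sequences.

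Group means were fitted with limma 3.58.1 in R 4.3.3 over the 9 arrays, with 6 residual and 3.28 prior degrees of freedom, in 3 comparisons, and the Benjamini-Hochberg adjustment ran over all genes (two-sided, called under 0.05). Values are log2 differences ± SE. The number of arrays limits the precision, and an exact permutation test of 3 against 3 could not go below p = 0.1, so none was used. The procedure was tested on simulated data. No array was left out of the main analysis.

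The members and the gene lists were chosen with earlier results of these data known, among them the differences of Rnu3a, Snora73a and Snora73b. Genes are named if they are those 3, a called member, a member among the 5 of its class with the smallest p or the 6 with the highest mean, a called or leading gene of a list, or the host of such a member. Other members and genes were named after their values were seen, to give counts or ranges. Fbl and Hsp90ab1 of the particle list, Exosc4 and Exosc6 of the decay list and the red-cell markers Hbb-bt and Hba-a1 had no single-gene probe set. Alternatives were a variance trend with robust moderation, genes above the median mean, averaging all probe sets of a gene, a repeat of quantile normalization, equal array medians, array weights, a block for replicate number, only the 6 arrays compared, an adjusted p under 0.10 for counts, and leaving out each array. Replicate numbers were checked for pairing: deviations of same-numbered arrays correlated at -0.05 to 0.17 and of others at -0.13 to 0.13, so the numbers were not taken as pairs.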

Additional observations from a re-analysis of the deposited data

Results flagged for a closer look

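The probe sets annotated to Gm26504, Snord116l1 and Snord116l2, which are no members because they name several genes, read 8.16 in high-fat replicate 3. This was more than 1 above every regular-diet array on the log2 scale, and the other arrays read 4.25 to 5.11. All 16 probe sets of these genes carry identical values, so they count as 1 measurement in 1 array.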

How the results depend on the processing

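Both class medians kept their direction in both comparisons with the regular diet under every alternative run, from -0.46 to -0.37 (C/D) and -0.44 to -0.32 (H/ACA) for the high-fat diet and from -0.41 to -0.30 and -0.42 to -0.29 with extract. For the extract against the high-fat diet the H/ACA median ran from -0.01 to 0.08 and the C/D median from 0.02 to 0.12, and 0 members were called in any fit. Counts of called members were less stable. Between the diets the 16 became 33 among genes above the median mean (597 of all genes called), 33 at an adjusted p under 0.10, 0 with only the 6 arrays compared (15 of all genes), and 1 to 13 in the fits that left out 1 array. With extract against the regular diet the 5 became 9 among genes above the median mean, 9 at an adjusted p under 0.10, 2 with only the 6 arrays compared, and 0 to 6 in the fits that left out 1 array. Apart from these and the block fit given next, the counts were within 1.5 times the main count. With the replicate number as a block, 9 members were called between the diets and 2 with extract against the regular diet, all among those called without it, and 0 for the extract on the high-fat diet; the numbers were not shown to pair the arrays. No called member changed sign in any alternative. Of the 9 fits that left out 1 array, Snord72 stayed called between the diets in 8, and Snora73a and Snora73b in 7. Rnu3a and Snord73b did so in 6, Snord8 in 5 and Snord110 in 4. The calls of Snord17, Snord42b and Snord73a stayed in 3 and that of Snord52 in 2. Those of Snora44, Snord70 and Snord87 stayed in 1, and those of Snora15 and Snord111 in 0. Why the counts move was not tested, apart from fewer genes or arrays being fitted by construction. Probe sets near background limit the members below the median gene.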
